A study of Mus musculus with 8 samples.

Results

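The genes described here encode the ligands, receptors, SMAD proteins, secreted regulators and *Id* targets of BMP and TGF-beta signalling, 53 in all, taken by name from a table of 19201 genes. A row was used for 50 of them, and each of these 50 passed the filter on low counts. The levels of *Gdf6*, *Bmpr1b* and *Chrdl2* were not analysed here. The counts come from RNA-Seq of ground cortical bone of tibiae and femora, in 4 Prx1Cre; Piezo1fl/fl samples (*Piezo1*-deficient below) and 4 WT samples, all from mice of strain C57BL/6J aged 6 weeks. In the *Piezo1*-deficient mice a floxed gene of the mechanosensitive channel PIEZO1 is deleted by Cre under the Prx1 promoter. This Cre acts in the limb mesenchyme that gives rise to osteoblasts and chondrocytes, and spares osteoclasts and blood cells. The labels say no more of the WT mice than their genotype, and leave out sex and whether every sample is a different animal, so p-values here measure the spread between the samples as given. The samples are replicates 1, 3, 4 and 5 of each genotype.

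Ligands of this family are secreted as dimers and bind pairs of type I and type II receptor kinases. BMP receptors mainly phosphorylate SMAD1, SMAD5 and SMAD9, and TGF-beta and activin receptors SMAD2 and SMAD3. These join SMAD4 and enter the nucleus, where the *Id* genes are classical targets of the BMP branch. Secreted antagonists such as noggin, chordin and gremlin hold BMPs away from their receptors, and latent TGF-beta binding proteins store TGF-beta in the matrix. In bone, TGF-beta kept in the matrix is set free during resorption, and BMPs drive osteoblast differentiation.

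*Piezo1* itself had 1726, 1898, 1788 and 1561 counts in *Piezo1*-deficient replicates 1, 3, 4 and 5, against 2476, 2926, 3071 and 2735 counts in the WT replicates (log2 fold change -0.57). Total counts ran from 11963536 to 14536106 per library. The unit of the levels below is CPM, which sets each count against its TMM-normalized library size. Osteoblast markers were abundant in every library, with a summed level of 223780 to 320470 CPM in *Piezo1*-deficient and 180780 to 220950 CPM in WT bone. These sums did not overlap, and 2 of the 8 osteoblast markers rose. Most of the mean sum in each genotype was *Col1a1* and *Col1a2*, so the sum says little of the other osteoblast markers. Markers of other cell types also differed between the genotypes. The 14 skeletal muscle markers summed to 509 to 4952 CPM in *Piezo1*-deficient against 28.9 to 183 CPM in WT libraries, and 13 of them rose. The 8 tendon and periosteal fibroblast markers summed to 1546 to 2066 CPM in *Piezo1*-deficient against 761 to 1333 CPM in WT libraries. Of the 7 tested, 3 rose. *Postn* made up most of the mean sum in each genotype (1315 CPM in *Piezo1*-deficient and 736 CPM in WT). The hypertrophic chondrocyte markers *Col10a1* and *Ihh*, which both fell, summed to 63.3 to 179.5 in *Piezo1*-deficient against 1175 to 1677 CPM in WT. Of 14 growth plate chondrocyte markers 11 fell, and the median log2 fold change of the 14 was -3.87. Their sum was 5185 to 6538 in *Piezo1*-deficient against 6620 to 11422 CPM in WT. *Col11a1*, which was not lower in *Piezo1*-deficient bone, averaged 5077 CPM of a mean sum of 5857 CPM there. In WT it averaged 4194 CPM of 8578 CPM, so the sum says little of the other markers. The 8 osteoclast markers, 3 of which fell, summed to 5022 to 7377 in *Piezo1*-deficient against 8366 to 9584 CPM in WT. The 5 B lineage markers, 1 of which fell, summed to 113 to 272 CPM in *Piezo1*-deficient against 317 to 401 CPM in WT. The 5 Schwann cell markers, 2 of which rose, summed to 46.5 to 102 CPM in *Piezo1*-deficient against 33.4 to 44.1 CPM in WT. No marker in these lists was at 0 in all libraries. In ground tissue, fewer cells of a type and less RNA per cell cannot be told apart, and the part of these differences in the results below was not tested.

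**Figure D1:**
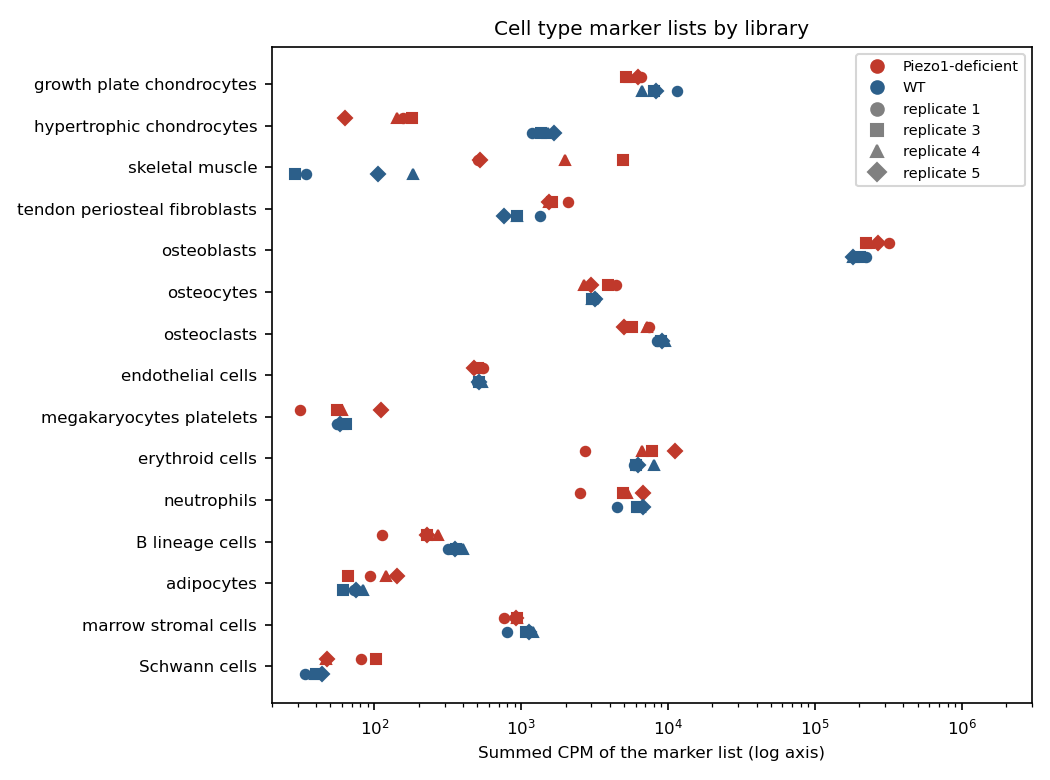
Summed CPM of 15 lists of cell type markers (log axis), with a point for each *Piezo1*-deficient (red) and WT (blue) library and a symbol for each replicate. Muscle markers lay at 509 CPM or more in each *Piezo1*-deficient library and at 183 CPM or less in each WT library, and osteoclast markers at 7377 CPM or less in *Piezo1*-deficient against 8366 CPM or more in WT.

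Of the 50 genes of the pathway, 3 passed the test. *Tgfb3* and *Ltbp4* rose in *Piezo1*-deficient bone, *Grem1* fell, and the other 47 did not pass. Rose and fell are used here only for an adjusted p under 0.05 in the quasi-likelihood test of edgeR, corrected over the 15318 genes tested. Of all genes tested, 2.04% rose and 0.973% fell, so that 2 and 1 of 50 is close to the share in the whole table. At an unadjusted p under 0.05, 15 genes of the pathway were higher and 4 lower, that is 30% and 8% of the 50, where 10.5% of all genes were higher and 7.89% lower. Every *Piezo1*-deficient library lay above every WT library for 7 pathway genes, where this held for 6.65% of all genes, and below for 4, against 5.27% of all genes. The median log2 fold change was 0.13 over the 50 genes and 0.0050 over all genes tested. It was positive for 37 of the 50, and for 51.1% of all genes. Without *Piezo1*-deficient replicate 1 the median of the 50 genes was 0.05, and 27 were positive, as were 50% of all genes. Log2 fold changes of the 50 genes ran from -0.92 (*Grem1*) to 0.64 (*Ltbp4*).

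Leaving out a library moved these counts. The number that rose was 5 without WT replicate 1, where 1.91% of all genes rose. It was 3 without *Piezo1*-deficient replicate 1 or 3 (2.67% and 1.35% of all genes). It was 1 without WT replicate 4 or 5 (0.53% and 0.457% of all genes). The number that fell was 0 without *Piezo1*-deficient replicate 4 and without any single WT replicate. Of all genes, 0.511% fell without *Piezo1*-deficient replicate 4. Without WT replicates 1, 3, 4 and 5 in turn, 0.98%, 0.347%, 0.362% and 0.315% of all genes fell. With the Wald test of DESeq2, 5 genes were higher (*Bambi*, *Chrd*, *Ltbp4*, *Smad9*, *Tgfb3*) and 2 lower (*Bmp6*, *Grem1*), where 3.32% and 1.88% of all genes with an adjusted p in that test were.

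**Figure D2:**
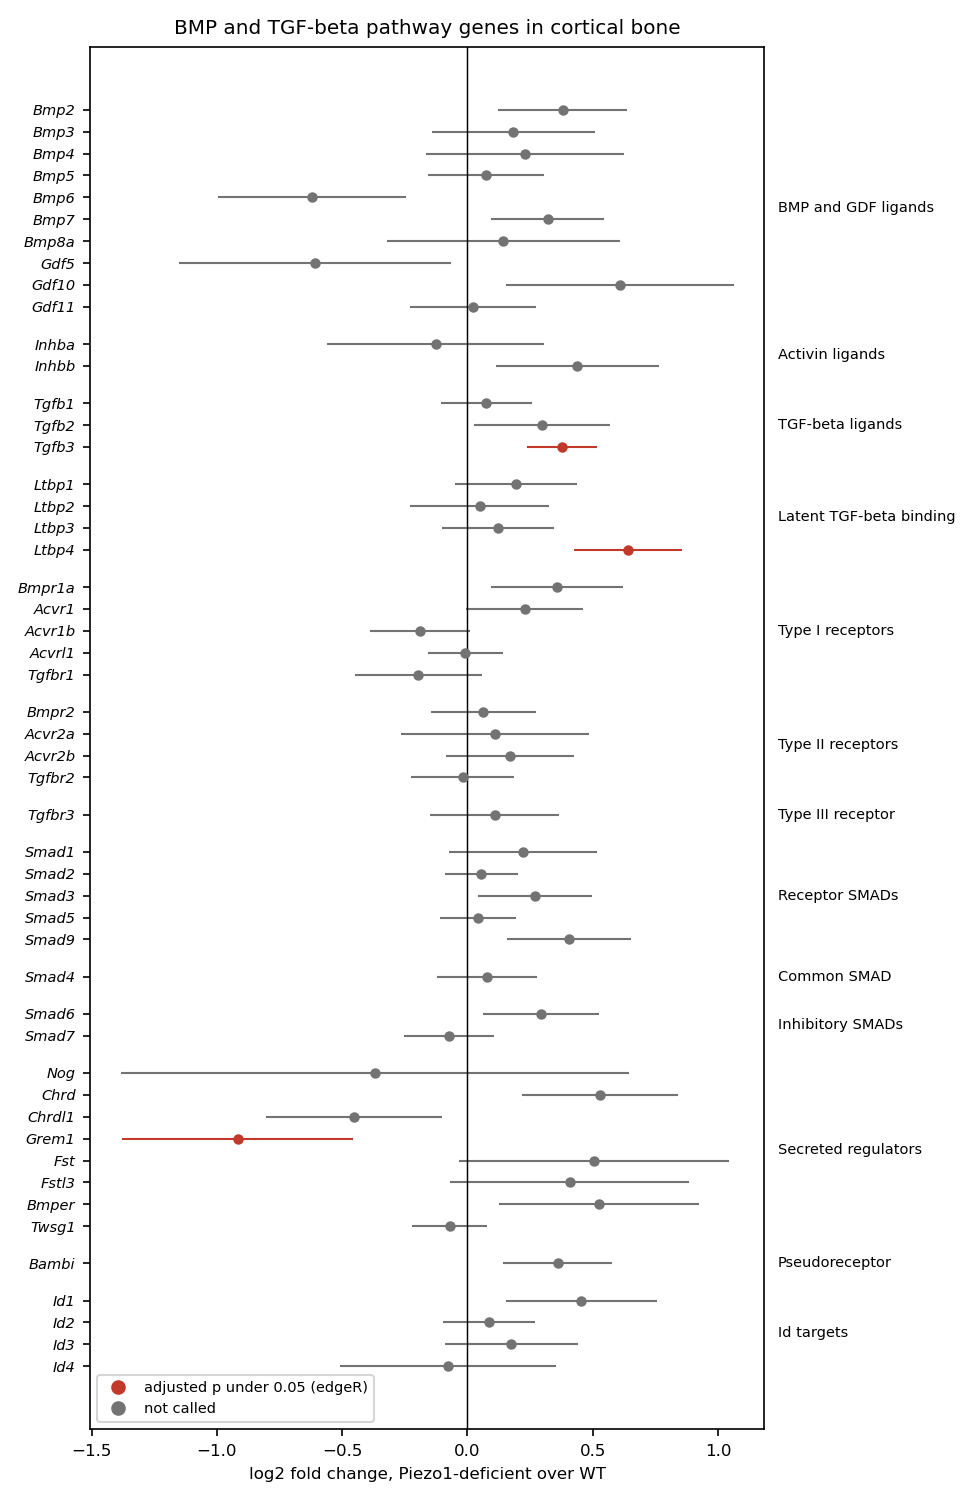
Log2 fold change of *Piezo1*-deficient over WT bone (x axis) for the 50 genes, grouped by role, with the 95% interval from the edgeR fit as bars. Red marks an adjusted p under 0.05. *Ltbp4* (0.64), *Tgfb3* (0.38) and *Grem1* (-0.92) passed the test, and the estimates of 37 genes lie right of 0.

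*Tgfb3* encodes the isoform of TGF-beta known in mice for its need in palate fusion and also made in cartilage, bone and tendon. It had 119, 111, 118 and 111 CPM in *Piezo1*-deficient replicates 1, 3, 4 and 5, against 86.1, 95.03, 85.2 and 86.8 CPM in the WT replicates. The genotypes did not overlap, and within each the libraries lay close together, at 115 ± 4.53 CPM in *Piezo1*-deficient and 88.3 ± 4.56 CPM in WT bone (SD, n = 4 each). The difference was 0.38 on the log2 scale (SE 0.063, adjusted p = 0.0140), which is 130.0% of the WT level. The call was lost without WT replicate 4 or 5 (adjusted p = 0.0622 and 0.0645), with the log2 fold change at 0.36 to 0.42 whichever library was left out. On GRCm38.p6, *Tgfb3* spans chromosome 12 from 86056743 to 86079041, and no other annotated gene overlaps it.

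*Tgfb1*, the most abundant of the TGF-beta genes and a main growth factor stored in bone matrix, had 148, 144, 129 and 165 CPM in *Piezo1*-deficient bone, against 143, 148, 135 and 131 CPM in WT. The WT range lay within the *Piezo1*-deficient range. Its log2 fold change was 0.08 (95% interval -0.11 to 0.26). *Tgfb2* had 36.0, 29.7, 27.0 and 27.0 CPM in *Piezo1*-deficient replicates, against 29.5, 22.2, 24.0 and 21.7 CPM in WT (log2 fold change 0.30, adjusted p = 0.223), with replicate 1 the highest of both genotypes.

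*Ltbp4* showed the larger of the 2 rises among the 50 genes. Its product is a latent TGF-beta binding protein that in mice also serves the assembly of elastic fibres. It had 106, 80.0, 87.2 and 84.0 CPM in *Piezo1*-deficient replicates 1, 3, 4 and 5, against 61.3, 61.8, 51.7 and 54.2 CPM in WT. The lowest *Piezo1*-deficient library exceeded the highest WT library, and *Piezo1*-deficient replicate 1 was the highest. The mean was 89.3 ± 11.4 CPM in *Piezo1*-deficient and 57.3 ± 5.04 CPM in WT bone (SD, n = 4 each). The difference was 0.64 on the log2 scale, with SE 0.098 and adjusted p = 0.0099. The call held whichever library was left out (adjusted p up to 0.0491). The sum of tendon and periosteal fibroblast markers, mostly *Postn*, separated the genotypes as *Ltbp4* did. This sum was highest in *Piezo1*-deficient replicate 1 (2066 CPM). The part of these markers in the rise of *Ltbp4* was not tested, nor was that of the muscle or osteoblast markers.

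The other latent TGF-beta binding proteins did not pass the test. *Ltbp3*, which carries latent TGF-beta in bone, had the highest level of the 4 per length of exon. It had 259, 202, 189 and 188 CPM in *Piezo1*-deficient bone against 199, 192, 184 and 196 CPM in WT. *Piezo1*-deficient replicate 1 was the highest, and the log2 fold change was 0.12 with that library and -0.0011 without it. *Ltbp1* had a log2 fold change of 0.19 (95% interval -0.05 to 0.44) and *Ltbp2* of 0.05 (95% interval -0.23 to 0.33).

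*Grem1*, the gene of the BMP antagonist gremlin, fell to 52.96% of the WT level. In mice it marks stem cells of the metaphysis, next to the growth plate, that form bone, cartilage and stroma. It had 4.40, 5.09, 4.54 and 2.26 CPM in *Piezo1*-deficient replicates 1, 3, 4 and 5, against 7.37, 8.16, 7.12 and 8.36 CPM in WT. The highest *Piezo1*-deficient library lay under the lowest WT library, and replicate 5 was the lowest of all. The mean was 4.07 ± 1.24 CPM in *Piezo1*-deficient and 7.75 ± 0.598 CPM in WT bone (SD, n = 4 each), which is -0.92 on the log2 scale, with SE 0.21 and adjusted p = 0.0427. The gene is weakly expressed and its call the least firm of the 3. It was lost without *Piezo1*-deficient replicate 4 or any single WT replicate (adjusted p up to 0.131), with log2 fold changes from -1.05 to -0.73. The hypertrophic chondrocyte markers moved with it and were likewise lowest in *Piezo1*-deficient replicate 5 (63.3 CPM). So were the osteoclast markers (5022 CPM), also lower in every *Piezo1*-deficient library. The sum of the growth plate chondrocyte markers was lower too, and lowest in *Piezo1*-deficient replicate 3 (5185 CPM). Most of this sum in that genotype was *Col11a1*, so its order over the libraries says little of the other markers. Marrow stromal markers summed to 762 to 937 CPM in *Piezo1*-deficient and 799 to 1193 CPM in WT bone. The part of these cells in the fall was not tested.

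The promoters of the genes that passed the test are shown because SMAD proteins bind DNA at short elements. The RefSeq table on GRCm38.p6 gave 44 promoter windows for 36 of the 53 genes (*Bmpr1b* included), among them *Grem1* and *Ltbp4* but not *Tgfb3*. Each window was read as the 250 bases before a start site, along the strand of the gene. Capitals mark GGCGCC, a GC-rich element bound by SMAD1 and SMAD5, and CAGAC, the short SMAD element, on either strand. The palindrome GTCTAGAC, bound by SMAD3 and SMAD4, was also searched, and holds no CAGAC on either strand.
Grem1, chr2:113758649-113758898, minus strand: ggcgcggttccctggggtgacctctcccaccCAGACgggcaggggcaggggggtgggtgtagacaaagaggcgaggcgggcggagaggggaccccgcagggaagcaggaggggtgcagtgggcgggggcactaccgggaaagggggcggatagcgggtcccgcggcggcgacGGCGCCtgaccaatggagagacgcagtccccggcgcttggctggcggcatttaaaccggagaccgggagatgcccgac
Ltbp4 upstream window, chr7:27337613-27337862, minus strand: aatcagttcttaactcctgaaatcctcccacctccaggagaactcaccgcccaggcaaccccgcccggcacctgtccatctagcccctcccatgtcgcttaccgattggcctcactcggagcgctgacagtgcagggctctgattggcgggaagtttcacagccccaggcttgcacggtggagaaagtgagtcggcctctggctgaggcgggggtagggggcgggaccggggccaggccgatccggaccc
Ltbp4 downstream window, chr7:27333649-27333898, minus strand: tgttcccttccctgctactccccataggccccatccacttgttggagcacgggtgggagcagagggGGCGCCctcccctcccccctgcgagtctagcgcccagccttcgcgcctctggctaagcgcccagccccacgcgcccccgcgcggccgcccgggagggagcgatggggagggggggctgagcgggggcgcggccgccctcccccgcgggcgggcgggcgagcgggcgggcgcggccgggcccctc

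The *Grem1* window held GGCGCC 1 time and CAGAC 1 time. The upstream *Ltbp4* window held none of the 3 motifs, and the downstream window held GGCGCC 1 time. A further *Ltbp4* window overlaps the downstream one and holds the same motif. All of these windows lie inside the annotated span of *Ltbp4*, so the start at the far end of the gene is not among them. Over all 32851 windows of the table, 9.59% held GGCGCC, 42.2% held CAGAC and 0.167% held GTCTAGAC. Of the 44 windows of the pathway, 11 (25.0%) held GGCGCC, 20 (45.5%) held CAGAC and none held GTCTAGAC. The downstream *Ltbp4* window is 79.2% G and C and the *Grem1* window 72.0%. On GRCm38.p6, *Grem1* spans chromosome 2 from 113748675 to 113758648, with no other gene over it, and *Ltbp4* chromosome 7 from 27305140 to 27339720, where the long noncoding RNA *Gm30543* overlaps it.

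None of the 10 BMP and GDF ligand genes tested passed the test, with log2 fold changes from -0.62 to 0.61. *Bmp6*, a BMP made in bone by hypertrophic chondrocytes among other cells, was the only one of them lower in every *Piezo1*-deficient library. It had 8.45, 9.08, 14.4 and 13.8 CPM there, against 15.6, 18.0, 18.3 and 18.4 CPM in WT (log2 fold change -0.62, SE 0.17, adjusted p = 0.0804). The *Piezo1*-deficient libraries split into a lower and a higher pair, and the Wald test of DESeq2 called the gene lower (adjusted p = 0.0171; 0.0171 to 0.207 over the alternatives). The gene's span overlaps the protein-coding *Txndc5*, with which it may share reads. The hypertrophic chondrocyte markers were also lower in *Piezo1*-deficient bone. Within that genotype they were lowest in replicate 5 (63.3 CPM), which belongs to the higher pair for *Bmp6*. Their part in this difference was not tested.

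*Bmp7*, a BMP needed for kidney and eye formation in mice, was the only one of these ligands higher in every *Piezo1*-deficient library. It had 21.3, 25.1, 22.0 and 26.3 CPM, against 17.6, 20.6, 17.1 and 20.5 CPM in WT (log2 fold change 0.32, adjusted p = 0.120). *Bmp2*, a strong inducer of osteoblasts that is needed for fracture repair in mice, had 29.9, 27.8, 23.4 and 25.7 CPM, against 25.1, 18.8, 18.6 and 19.7 CPM in WT (log2 fold change 0.38, adjusted p = 0.109). Only WT replicate 1 reached into the *Piezo1*-deficient range, and without that library the gene passed (log2 fold change 0.49, adjusted p = 0.0357). Over all the alternatives its adjusted p ran from 0.0203 to 0.294. The lowest came from leaving out replicate 1 of both genotypes, a choice made after the data were seen.

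*Gdf10*, also known as BMP3B, had the largest positive difference among these ligands, with 14.6, 18.1, 26.1 and 24.3 CPM in *Piezo1*-deficient against 18.3, 11.0, 11.7 and 13.7 CPM in WT replicates 1, 3, 4 and 5. The genotypes overlapped through WT replicate 1 alone, the highest WT library, which lay above *Piezo1*-deficient replicates 1 and 3. Replicate 1 was the lowest *Piezo1*-deficient library, but lay above the other WT libraries. The log2 fold change was 0.61 (adjusted p = 0.141), and 0.91 (adjusted p = 0.0062) when replicate 1 of both genotypes was left out, a choice made after these values were seen. Its adjusted p ran from 0.0062 to 0.338 over the alternatives.

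*Bmp3*, an inhibitory BMP of osteoblasts and osteocytes, was the most abundant of the 10 BMP and GDF ligand genes per length of exon. It had 227, 162, 155 and 157 CPM in *Piezo1*-deficient against 195, 133, 146 and 144 CPM in WT replicates (log2 fold change 0.18, 95% interval -0.14 to 0.51). Replicate 1 stood above the other libraries in both genotypes. *Bmp4*, a BMP active in early osteoblast formation, had 55.2 CPM in *Piezo1*-deficient replicate 1 and 29.0 to 34.3 CPM in the other libraries of that genotype, against 28.2 to 35.4 CPM in WT. Without that library its log2 fold change was -0.01, where it was 0.23 with it. *Bmp8a* (log2 fold change 0.14) and *Bmp5* (0.07) also turned to -0.13 and -0.0037 without *Piezo1*-deficient replicate 1. *Bmp8a* may share reads with its close paralog *Bmp8b*. *Gdf11*, a ligand of axial patterning, had a log2 fold change of 0.02 (95% interval -0.23 to 0.27). *Gdf5*, a ligand of joint formation, was nearly absent, with 0.806 to 1.35 CPM in *Piezo1*-deficient against 1.17 to 1.75 CPM in WT bone (adjusted p = 0.216).

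**Figure D3:**
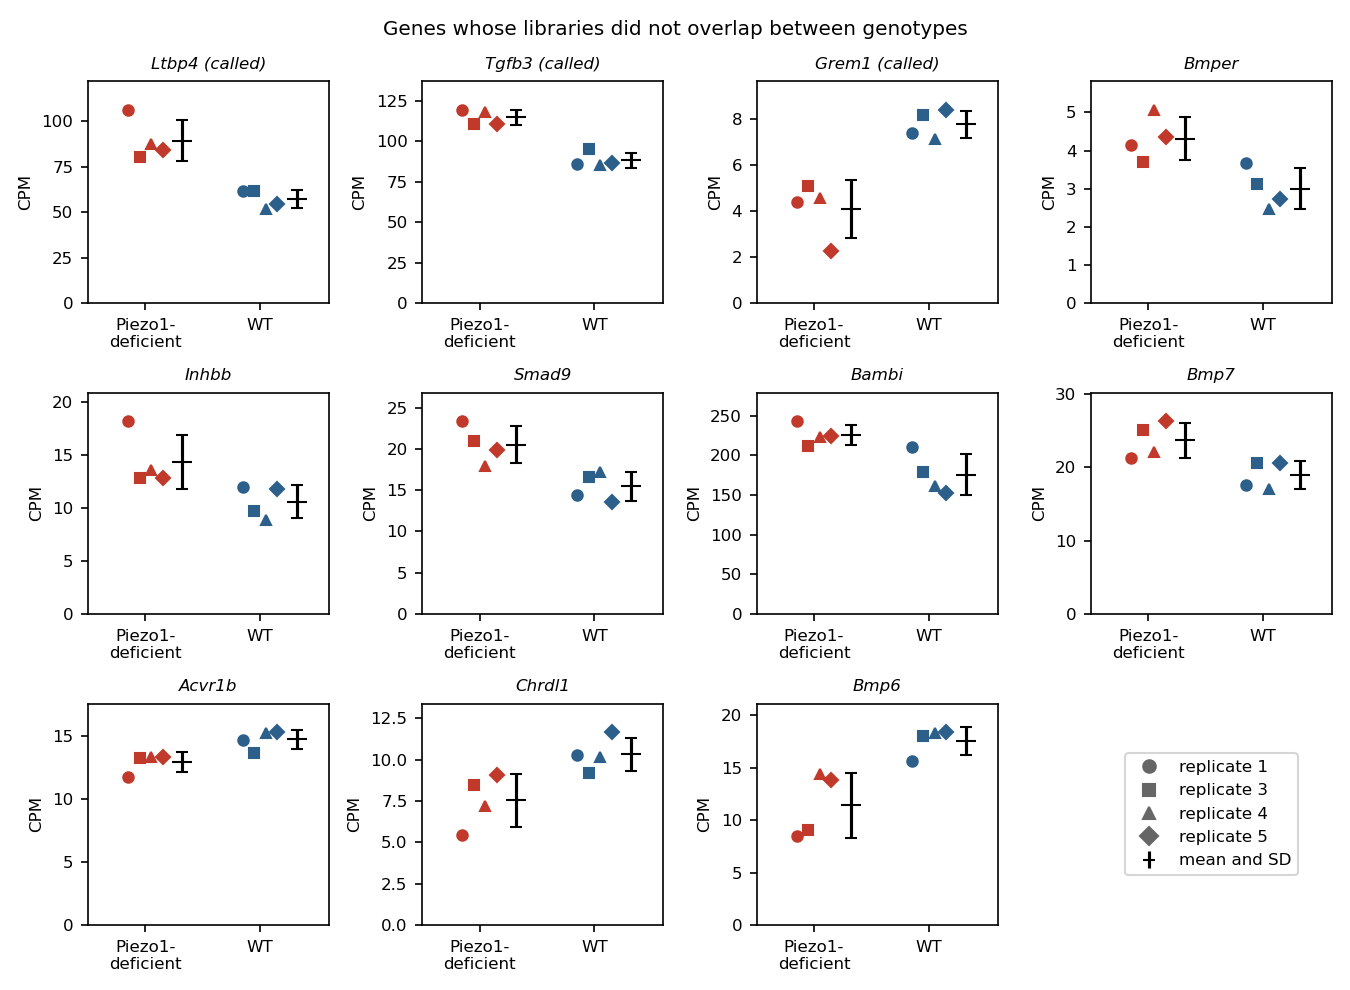
CPM in each library (y axis from 0) of the 11 genes whose *Piezo1*-deficient (red, left) and WT (blue, right) libraries did not overlap, with the mean and SD of 4 in black. The *Ltbp4* panel shows 80.0 CPM or more in *Piezo1*-deficient against 61.8 CPM or less in WT libraries, and in the *Inhbb* and *Smad9* panels replicate 1 is the highest *Piezo1*-deficient library.

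The activin genes gave no call. *Inhbb*, the beta B subunit of activins and inhibins, had 18.2, 12.8, 13.6 and 12.9 CPM in *Piezo1*-deficient against 12.0, 9.76, 8.87 and 11.8 CPM in WT bone. Its genotypes did not overlap, though the nearest libraries lay close together and *Piezo1*-deficient replicate 1 stood above the rest (log2 fold change 0.44, SE 0.15, adjusted p = 0.140). *Inhba*, the beta A subunit, had 3.66 to 4.61 CPM in *Piezo1*-deficient against 3.50 to 5.96 CPM in WT (log2 fold change -0.13, 95% interval -0.56 to 0.31).

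Receptor genes gave no call. None of 10 tested passed, and the estimates lay between -0.20 (*Tgfbr1*) and 0.36 (*Bmpr1a*). *Tgfbr2*, the type II receptor for TGF-beta, had 233, 191, 175 and 178 CPM in *Piezo1*-deficient against 212, 191, 192 and 192 CPM in WT bone (log2 fold change -0.02, 95% interval -0.23 to 0.19). *Tgfbr1*, its type I partner, had 154, 134, 126 and 100.8 CPM in *Piezo1*-deficient against 149.9, 134.5, 148 and 158 CPM in WT (log2 fold change -0.20, adjusted p = 0.3997), with *Piezo1*-deficient replicate 5 the lowest. *Bmpr2*, the type II receptor for BMPs, had a log2 fold change of 0.06 (95% interval -0.15 to 0.27) and *Tgfbr3*, the co-receptor betaglycan, of 0.11 (-0.15 to 0.37). *Acvrl1*, a type I receptor of vessel endothelium, had 29.8 ± 1.45 CPM in *Piezo1*-deficient against 29.98 ± 1.13 CPM in WT (SD, n = 4 each). This was the smallest difference among the 50 genes, and the 6 endothelial markers also had overlapping sums, of 477 to 550 CPM in *Piezo1*-deficient and 499 to 536 CPM in WT bone.

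*Bmpr1a*, a type I receptor through which BMPs act in osteoblasts, had 74.2, 63.2, 53.3 and 49.9 CPM in *Piezo1*-deficient against 45.5, 48.9, 42.3 and 51.2 CPM in WT bone (log2 fold change 0.36, adjusted p = 0.138). The lowest *Piezo1*-deficient and the highest WT library, both replicate 5, crossed. *Acvr1b*, a type I receptor for activins, was lower in every *Piezo1*-deficient library, with 11.8, 13.3, 13.3 and 13.4 CPM there against 14.7, 13.7, 15.3 and 15.3 CPM in WT. The gap was small (log2 fold change -0.19, adjusted p = 0.296). *Acvr1*, the receptor mutated in fibrodysplasia ossificans progressiva, had a log2 fold change of 0.23 (95% interval -0.01 to 0.46). *Acvr2a* and *Acvr2b*, type II receptors shared by activins and BMPs, had log2 fold changes of 0.11 and 0.17.

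Of the 8 SMAD genes none passed the test and 7 had positive estimates. *Smad9*, a receptor-regulated SMAD of the BMP branch, was the only SMAD gene whose genotypes did not overlap. It had 23.3, 21.0, 17.9 and 19.9 CPM in *Piezo1*-deficient against 14.4, 16.6, 17.2 and 13.6 CPM in WT bone (log2 fold change 0.41, SE 0.11, adjusted p = 0.0814). DESeq2 placed it just past the threshold (adjusted p = 0.0497; 0.0497 to 0.230 over the alternatives). *Smad5*, the most abundant SMAD of the BMP branch, had 123, 111, 108 and 103 CPM in *Piezo1*-deficient against 111, 105, 106 and 109 CPM in WT (log2 fold change 0.04, 95% interval -0.11 to 0.20). *Smad1* had 42.9 CPM in *Piezo1*-deficient replicate 1 and 27.0 to 34.2 CPM in the others, against 27.5 to 30.7 CPM in WT (adjusted p = 0.417).

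In the TGF-beta branch, *Smad3* had 87.8, 93.0, 84.7 and 67.7 CPM in *Piezo1*-deficient against 60.9, 67.6, 73.0 and 74.8 CPM in WT bone (log2 fold change 0.27, adjusted p = 0.189). *Piezo1*-deficient replicate 5 was the only library of its genotype within the WT range. *Smad2* had a log2 fold change of 0.06 (95% interval -0.09 to 0.20). *Smad4*, the common partner, had 100.01, 84.1, 75.9 and 78.2 CPM in *Piezo1*-deficient against 82.1, 74.2, 80.8 and 83.6 CPM in WT (log2 fold change 0.08). *Smad6*, the inhibitory SMAD that acts on BMP signals, had 37.0, 48.5, 49.5 and 39.1 CPM in *Piezo1*-deficient against 32.4, 38.6, 35.5 and 35.7 CPM in WT (log2 fold change 0.29, adjusted p = 0.161). Only *Piezo1*-deficient replicate 1 lay within the WT range. *Smad7*, the inhibitor induced by TGF-beta, had 25.5 ± 2.18 CPM in *Piezo1*-deficient against 26.8 ± 1.45 CPM in WT (SD, n = 4 each; log2 fold change -0.07).

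Among the other secreted regulators of BMPs and activins, estimates lay on both sides of 0 and none passed the test. *Chrd*, the gene of chordin, had 14.5, 10.2, 12.0 and 14.7 CPM in *Piezo1*-deficient against 8.31, 10.3, 8.74 and 8.12 CPM in WT bone. The genotypes overlapped only in that the lowest *Piezo1*-deficient library was just under the highest WT library. On the log2 scale the difference was 0.53 (SE 0.14, adjusted p = 0.0737; 0.0314 to 0.213 over the alternatives, with the lowest from DESeq2). Its span overlaps the protein-coding *Thpo*. *Chrdl1*, a chordin-like antagonist, went the other way, with 5.41, 8.49, 7.18 and 9.04 CPM in *Piezo1*-deficient against 10.3, 9.18, 10.2 and 11.6 CPM in WT and no overlap (log2 fold change -0.45, adjusted p = 0.157). *Bmper*, a regulator of BMPs in vessels and cartilage, had 4.14, 3.69, 5.05 and 4.35 CPM in *Piezo1*-deficient against 3.68, 3.13, 2.46 and 2.73 CPM in WT, the ranges nearly touching (log2 fold change 0.52, adjusted p = 0.148).

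*Fst*, the activin antagonist follistatin, had 10.8 CPM in *Piezo1*-deficient replicate 1 and 4.76 to 5.91 CPM in the others, against 4.01 to 5.57 CPM in WT. *Fstl3*, its relative, had 4.32 to 7.86 CPM in *Piezo1*-deficient against 3.76 to 5.88 CPM in WT, with replicate 1 the highest of both genotypes. *Nog*, the gene of noggin, was hardly detected, with 0.435 to 1.46 CPM in *Piezo1*-deficient against 0.389 to 1.33 CPM in WT, and at this depth a difference in it was not detectable (95% interval of the log2 fold change -1.38 to 0.65). *Twsg1*, which can both help and hinder chordin, was the most abundant per length of exon of the 8 secreted regulators tested among the 50 genes, with 76.8, 74.6, 71.4 and 64.4 CPM in *Piezo1*-deficient against 75.1, 73.0, 77.2 and 76.4 CPM in WT (log2 fold change -0.07, 95% interval -0.22 to 0.08).

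*Bambi*, a membrane pseudoreceptor that lacks a kinase and dampens TGF-beta and BMP signals, had a higher level in all *Piezo1*-deficient libraries. It had 243, 212, 223 and 224 CPM, against 210.1, 179, 162 and 152 CPM in WT bone. WT replicate 1 nearly reached *Piezo1*-deficient replicate 3, and the other WT libraries lay well below. The difference of 0.36 on the log2 scale did not pass (SE 0.099, adjusted p = 0.0804), and without WT replicate 1 it was 0.46 (adjusted p = 0.0246). Over the alternatives the adjusted p ran from 0.0101 to 0.244. Its lowest value came from the setting without replicate 1 of both genotypes, chosen after the data were seen.

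The *Id* genes, whose products block basic helix-loop-helix factors, gave no call. *Id3* was the most abundant of the 50 genes per length of exon. It had 388, 278, 329 and 316 CPM in *Piezo1*-deficient against 339, 310, 262 and 250 CPM in WT bone, with overlap (log2 fold change 0.18, 95% interval -0.09 to 0.44). *Id1*, the *Id* gene most often read as a BMP response, had 39.5, 32.2, 36.1 and 38.1 CPM in *Piezo1*-deficient against 33.5, 29.0, 21.6 and 22.3 CPM in WT. On the log2 scale the difference was 0.46 (SE 0.14, adjusted p = 0.106), and it passed without WT replicate 1 (log2 fold change 0.59, adjusted p = 0.0370). The adjusted p of *Id1* ran from 0.0201 to 0.278 over the alternatives. Its lowest value came from the setting without replicate 1 of both genotypes, chosen after the data were seen. *Id2* had 36.2 to 42.1 CPM in *Piezo1*-deficient against 33.4 to 41.6 CPM in WT, and *Id4* 7.74 to 15.5 CPM in *Piezo1*-deficient against 11.1 to 15.1 CPM in WT, both with overlap.

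Levels can be set side by side between genes only per length, so CPM were divided by the exon length of each gene in GENCODE M1. On this scale *Id3* led the 50 genes, with 183 ± 25.4 CPM per kb in *Piezo1*-deficient and 162 ± 23.2 CPM per kb in WT bone (SD, n = 4 each). Of the ligands, *Tgfb1* (57.4 ± 5.77 in *Piezo1*-deficient against 54.4 ± 3.05 CPM per kb in WT) and *Bmp3* (56.3 ± 11.1 in *Piezo1*-deficient against 49.6 ± 8.83 CPM per kb in WT) came first, and their levels did not differ beyond their spread. *Tgfb3* followed with 33.9 ± 1.34 in *Piezo1*-deficient against 26.1 ± 1.35 CPM per kb in WT, and *Bmp4* with 16.97 ± 5.33 in *Piezo1*-deficient against 14.4 ± 1.51 CPM per kb in WT. *Gdf5* was the lowest of the 15 ligands tested among the 50 genes in both genotypes (0.438 in *Piezo1*-deficient against 0.665 CPM per kb in WT). Among the regulators *Bambi* (44.7 in *Piezo1*-deficient against 34.8 CPM per kb in WT) and *Twsg1* (17.8 in *Piezo1*-deficient against 18.6 CPM per kb in WT) stood far above *Nog*, *Chrd*, *Chrdl1*, *Grem1*, *Fst*, *Fstl3* and *Bmper*, which lay between 0.402 and 2.55 CPM per kb in *Piezo1*-deficient bone and between 0.538 and 1.87 CPM per kb in WT. Among receptors *Bmpr2*, *Tgfbr2* and *Tgfbr1* led, with 25.4, 24.0 and 19.7 CPM per kb in *Piezo1*-deficient bone against 24.3, 24.3 and 22.6 CPM per kb in WT, neighbours that did not differ beyond their spread. The place of *Bmpr2* rests on its exon length in GENCODE M1, 3507 bases against 8088 for *Tgfbr2*. Its CPM (89.2 in *Piezo1*-deficient and 85.3 in WT) lay below those of *Tgfbr2* (194 and 197). The annotation behind the counts is not given, so these ranks are approximate.

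**Figure D4:**
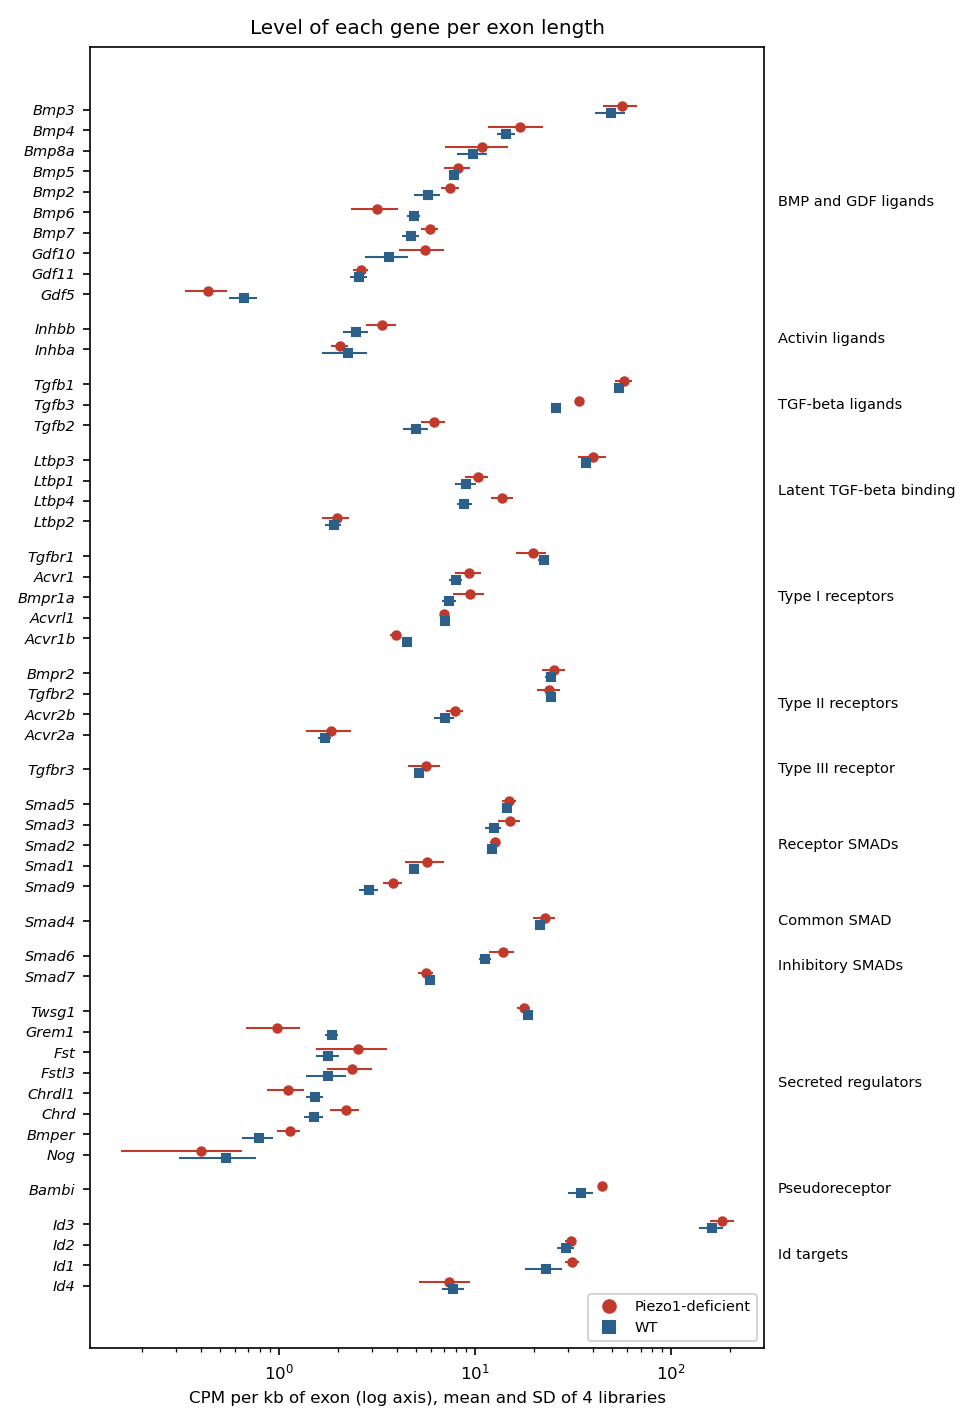
Level of the 50 genes as CPM per kb of exon (log x axis), mean and SD of 4 *Piezo1*-deficient (red, above) and 4 WT (blue, below) libraries, ordered within each role by the WT level. *Id3* is highest (183 in *Piezo1*-deficient against 162 CPM per kb in WT), *Tgfb1* and *Bmp3* lead the ligands, and *Nog* is lowest (0.402 in *Piezo1*-deficient against 0.538 CPM per kb in WT).

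Variation within the *Piezo1*-deficient group had a common direction in these genes. *Piezo1*-deficient replicate 1 held the highest CPM of all 8 libraries for 29 of the 50 genes (58.0%), where it did so for 23.4% of all genes tested. Each of the other *Piezo1*-deficient libraries held the highest CPM of 4 or 5 genes of the pathway, and WT libraries of 0 to 5. Within the *Piezo1*-deficient group alone, replicate 1 was the highest for 32 of 50 genes, against 33.4% of all genes. This library also had the lowest TMM factor (0.888), the highest osteoblast sum (320470 CPM) and the lowest erythroid, neutrophil and B lineage sums (2705, 2518 and 113 CPM), and it stood apart from the other libraries of its genotype on the second principal component. The part of these features in the levels of the pathway was not tested. Without this library *Gdf10*, *Ltbp4* and *Tgfb3* passed the test as higher and *Grem1* as lower, with 2.67% of all genes higher and 1.75% lower. Without replicate 1 of both genotypes, an alternative chosen after the data were seen, *Bambi*, *Bmp2*, *Gdf10*, *Id1*, *Ltbp4* and *Tgfb3* passed as higher and *Grem1* as lower, and the median was 0.06. In that setting 3.88% of all genes were higher and 2.66% lower, where the fit with all libraries gave 2.04% and 0.973%.

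**Figure D5:**
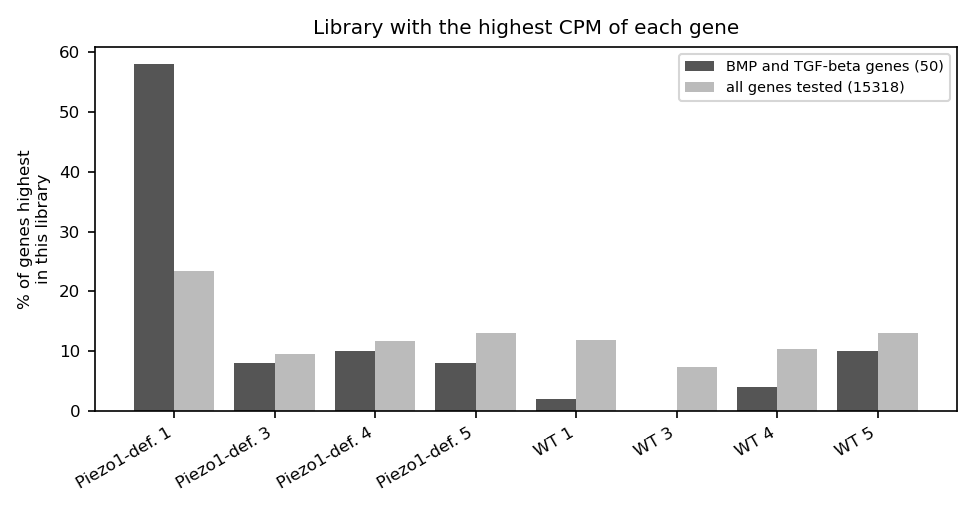
Share of genes (y axis, %) whose highest CPM over the 8 libraries was in the library named on the x axis, for the 50 pathway genes (dark) and the 15318 genes tested (light). *Piezo1*-deficient replicate 1 held 58.0% of the pathway genes and 23.4% of all genes, and no other library more than 10% of the pathway genes.

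Of a list of 79 other genes of the pathway, chosen with earlier results of these data known, 56 were tested. Of these 5 rose (8.93%, where 2.04% of all genes did) and none fell (0.973% of all genes), with 16 higher (28.6%, against 10.5% of all genes) and 1 lower (1.79%, against 7.89%) at an unadjusted p under 0.05, and the Wald test of DESeq2 called 6 of them higher and 0 lower. Their median log2 fold change was 0.15. *Aspn*, the gene of asporin, a small matrix proteoglycan that binds TGF-beta, rose most clearly among them. It had 228, 182, 158 and 158 CPM in *Piezo1*-deficient against 108, 62.2, 83.5 and 58.9 CPM in WT bone (log2 fold change 1.21, SE 0.19, adjusted p = 0.0112), and its call held whichever library was left out. Its span overlaps that of *Cenpp*. The summed tendon and periosteal fibroblast markers, mostly *Postn*, were also higher in *Piezo1*-deficient bone. Their part in this rise was not tested. *Nbl1*, a BMP antagonist of the DAN family, had 135, 87.4, 92.4 and 108 CPM in *Piezo1*-deficient against 74.6, 67.5, 57.7 and 54.3 CPM in WT, without overlap (log2 fold change 0.74, adjusted p = 0.0251). *Fbn2*, a fibrillin whose microfibrils hold latent TGF-beta and BMPs, rose by a log2 fold change of 0.59 (adjusted p = 0.0294). *Dlx5*, a homeobox gene induced by BMPs in osteoblasts, had 60.3, 52.0, 48.6 and 52.5 CPM in *Piezo1*-deficient against 43.3, 41.9, 40.4 and 42.4 CPM in WT (log2 fold change 0.35, adjusted p = 0.0352).

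The fifth of these genes, *Hfe2*, encodes the BMP co-receptor hemojuvelin of muscle and liver. It had 1.78, 13.2, 4.61 and 1.48 CPM in *Piezo1*-deficient bone and at most 0.391 CPM in WT (log2 fold change 5.10, adjusted p = 0.0216). Its 4 *Piezo1*-deficient levels put replicate 3 first and replicate 4 next, as did the sum of the muscle markers, whose part in this rise was not tested. The number of these other genes that rose was 3 without *Piezo1*-deficient replicate 3, 4 or 5 (1.35%, 0.893% and 1.81% of all genes). It was 1 (*Aspn*) without WT replicate 3, 4 or 5 (0.655%, 0.53% and 0.457% of all genes). Without *Piezo1*-deficient replicate 1, 1 of them, *Itgav*, fell, as did 1.75% of all genes. *Tgfbi* and *Ctgf*, often used as TGF-beta responses, did not pass, with log2 fold changes of 0.12 and -0.24 (adjusted p = 0.478 and 0.652). Of the 14 intracellular regulators, such as *Smurf1*, *Ski* and *Skil*, none passed the test (log2 fold changes from -0.30 to 0.22).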

How the data were processed

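The authors deposited raw read counts per gene for 8 TruSeq RNA libraries, without normalization. The submitters' processing notes name GRCm38 and HISAT2, whereas the methods of the study name mm9 and TopHat. Which of these made the counts, the read counter, the annotation and any use of strand are not given in the sources used here, so reads of overlapping genes may be shared. Deposited columns with the authors' own fold changes and p-values were not used.

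Counts were filtered with filterByExpr, scaled by TMM (factors 0.888 to 1.07) and tested with the quasi-likelihood F test of edgeR 4.0.16 in R 4.3.3 with genotype as the only term, on 15318 of 19201 genes. The Benjamini-Hochberg adjustment covered all of these. The biological coefficient of variation was 13.1%. Intervals of 95% use the standard error, taken from the test statistic, and the median total degrees of freedom of the test, 10.6. No pair of libraries agreed within sampling noise. CPM were divided by exon lengths from GENCODE M1 for levels per kb. Gene positions and promoters came from RefSeq on GRCm38.p6. The fit was tested on simulated data.

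Alternatives were the size factors of DESeq2, its Wald test (DESeq2 1.42.0), no filter, a mean of at least 5 CPM, library sizes without 3 abundant bone genes, a replicate block, each library left out and, chosen after the data were seen, replicate 1 of both genotypes left out. Values are given for every gene listed as a ligand, receptor, SMAD, regulator or *Id* gene, and for other pathway genes that passed the test. The genes and lists were chosen with earlier results of these data known.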

Additional observations from a re-analysis of the deposited data

Results flagged for a closer look

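In 9 of the 100 groups of 4 libraries (50 genes in 2 genotypes), a library lay far from the other libraries of its genotype by Dixon's test at the 95% level, where chance alone gives about 1 in 20. In *Piezo1*-deficient replicate 1, *Bmp3* had 226.9 CPM (154.7 to 162.2 CPM in the other *Piezo1*-deficient libraries), *Inhbb* 18.18 CPM (12.84 to 13.55) and *Acvr1b* 11.75 CPM (13.28 to 13.39). In WT replicate 1, *Bmp2* had 25.08 CPM (18.59 to 19.69 CPM in the other WT libraries), *Tgfbr2* 211.6 CPM (191.4 to 192.4), *Fstl3* 5.879 CPM (3.756 to 3.984) and *Bmp6* 15.6 CPM (17.99 to 18.36). WT replicate 3 had 95.03 CPM of *Tgfb3* (85.16 to 86.79), and WT replicate 5 had 30.7 CPM of *Smad1* (27.45 to 27.83). Of these 9 values, 7 came from replicate 1 of either genotype.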

How the results depend on the processing

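The number of genes that rose was 2 and the number that fell 1. They stayed the same genes with the size factors of DESeq2, without a filter, with a mean of at least 5 CPM and with library sizes without *Col1a1*, *Col1a2* and *Sparc*. The Wald test of DESeq2 gave 5 and 2. Leaving out each library in turn gave 1 to 5 that rose and 0 to 1 that fell, and 1 to 5 higher and 0 to 1 lower among other pathway genes. Without replicate 1 of both genotypes, 6 were higher, and 3 other pathway genes (*Ctgf*, *Fbn1*, *Itgav*) were lower.

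With a replicate block, 4 genes were higher (*Bambi*, *Bmp2*, *Ltbp4*, *Tgfb3*) and 2 lower (*Bmp6*, *Grem1*). Libraries of the same number did not all deviate together (r = 0.333, -0.218, 0.167 and -0.00949 for replicates 1, 3, 4 and 5, across genes), so the numbers were not taken as pairs. Over all genes the block gave 506 higher and 320 lower, the Wald test 613 and 347, and leaving out a library 71 to 415 and 49 to 271.

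Estimates near 0 changed sign when a library was left out, none of them called. Their log2 fold changes ran over *Bmp4* (-0.012 to 0.34), *Bmp5* (-0.0037 to 0.14), *Bmp8a* (-0.13 to 0.26), *Gdf11* (-0.048 to 0.057), *Inhba* (-0.23 to 0.042), *Ltbp2* (-0.029 to 0.13), *Ltbp3* (-0.0011 to 0.17), *Acvrl1* (-0.038 to 0.016), *Bmpr2* (-0.013 to 0.13), *Acvr2a* (-0.053 to 0.22), *Tgfbr2* (-0.12 to 0.029), *Tgfbr3* (-0.016 to 0.19), *Smad5* (-0.011 to 0.073), *Smad4* (-0.016 to 0.13) and *Id4* (-0.21 to 0.077). Without replicate 1 of both genotypes, signs changed for *Bmp5* (-0.0022), *Bmp8a* (-0.019), *Inhba* (0.053), *Bmpr2* (-0.031), *Acvr2a* (-0.10), *Tgfbr3* (-0.042) and *Smad4* (-0.0080). The cause of these changes was not tested. With 4 libraries per genotype, small differences in genes of few counts, such as *Nog* (from 5 counts), were not detectable.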
